A study of Homo sapiens with 4 samples.

Results

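Transcripts of 35 DNA repair genes were followed in VCaP cells after transfection with an siRNA against ZBTB7A (siZBTB7A) or with a non-targeting control siRNA (siNTC). The genes were chosen by name from homologous recombination, the Fanconi anaemia pathway, mismatch repair, end joining and damage signalling. All 35 were found by symbol among the 60308 gene identifiers of each count table, and all 35 were abundant enough to test. VCaP is an established line of human prostate cancer cells that carries a TMPRSS2-ERG fusion. Both groups were grown and transfected in DMEM with 10% FBS. The labels do not give the time from transfection to harvest. Each group had 2 tables from stranded total RNA libraries, and the study asked which genes respond to loss of ZBTB7A, a zinc finger transcription factor best known as a repressor.

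A double-strand break is repaired in one of 2 main ways. Ku (XRCC5 with XRCC6) and the kinase PRKDC rejoin the ends directly, whereas nucleases trim the ends so that BRCA1, PALB2 and BRCA2 can load a recombinase that copies from the sister chromatid. ATM and ATR are the kinases that signal breaks and stalled replication, and the Fanconi anaemia proteins deal with crosslinked strands. In prostate cancer, defects in BRCA2, ATM, CDK12 and mismatch repair genes are known recurrent lesions, and PARP inhibitors are used against tumours that lack recombination.

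The tables held 5556061 and 5745862 gene reads in siZBTB7A and 5737738 and 5927656 in siNTC. The tables of a group differed by no more than read sampling over all genes, with chi-square per degree of freedom of 0.995 in siZBTB7A (12645 genes) and 0.993 in siNTC (12762 genes). They were therefore counted as 1 library per group, so no difference below has a replicate check. Over the 35 repair genes alone the same ratio was 0.508 in siZBTB7A (chi-square p = 0.993) and 1.60 in siNTC (chi-square p = 0.0131). In siNTC, RAD51B (31 and 14 reads) and RAD50 (302 and 255) were among the genes that differed most between the tables. Over these 35 genes the siNTC ratio thus lay above that of read sampling, though over all genes it did not. A ratio over so few genes cannot show whether the siNTC tables held a further spread. Intervals for counting error would leave such a spread out. ZBTB7A was counted with 70 and 74 reads in siZBTB7A and 90 and 115 reads in siNTC. Its fold was 0.743 (0.597 to 0.924, 95% interval for counting error), and it did not pass the edgeR test across all genes (adjusted p = 0.0969, Benjamini-Hochberg). The 9 markers of luminal prostate cells were all detected. Of them 3 were higher in siZBTB7A (KLK2, HOXB13 and FOLH1), where 2.25% of all tested genes were. Their summed fold over the 9 was 1.035 (1.025 to 1.046), and their part in the repair values was not tested. The 6 leukocyte and endothelial markers had 33 reads in siZBTB7A and 23 in siNTC in all (PTPRC, CD3E and CDH5 had 0 or 1), and the 6 fibroblast markers had 161 and 203 reads, mostly of LUM (144 and 178).

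Values are CPM, the reads of a gene scaled to the gene reads of its table after TMM adjustment. A fold is the summed siZBTB7A tables over the summed siNTC tables, with an exact 95% interval that covers counting error only. A gene is called lower or higher where the edgeR quasi-likelihood test over all 12848 tested genes gave an adjusted p under 0.05. With 1 library per group this compares 2 libraries and not the 2 conditions, and a change in RNA per cell cannot be told apart from a change in which cells were sampled.

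Levels per length spanned a wide range, with the end-joining genes at the top. In RPKM (CPM per kilobase of the longest annotated transcript), XRCC6 stood at 116.0 in siZBTB7A and 116.2 in siNTC, and XRCC5 at 96.4 and 101.3. PARP1, which marks strand breaks with poly(ADP-ribose), stood at 64.6 in siZBTB7A and 66.1 in siNTC, and PRKDC at 55.7 and 61.8. These 4 genes stood far above the recombination genes. BRCA1 stood at 8.57 in siZBTB7A and 8.71 in siNTC, BRCA2 at 3.65 and 4.29, and PALB2 at 2.13 and 2.51 on the same scale. The lowest was HELB, at 0.482 in siZBTB7A and 0.779 in siNTC. Its longest annotated transcript of 12866 bases need not be the one expressed, which would make this level too low.

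**Figure D1:**
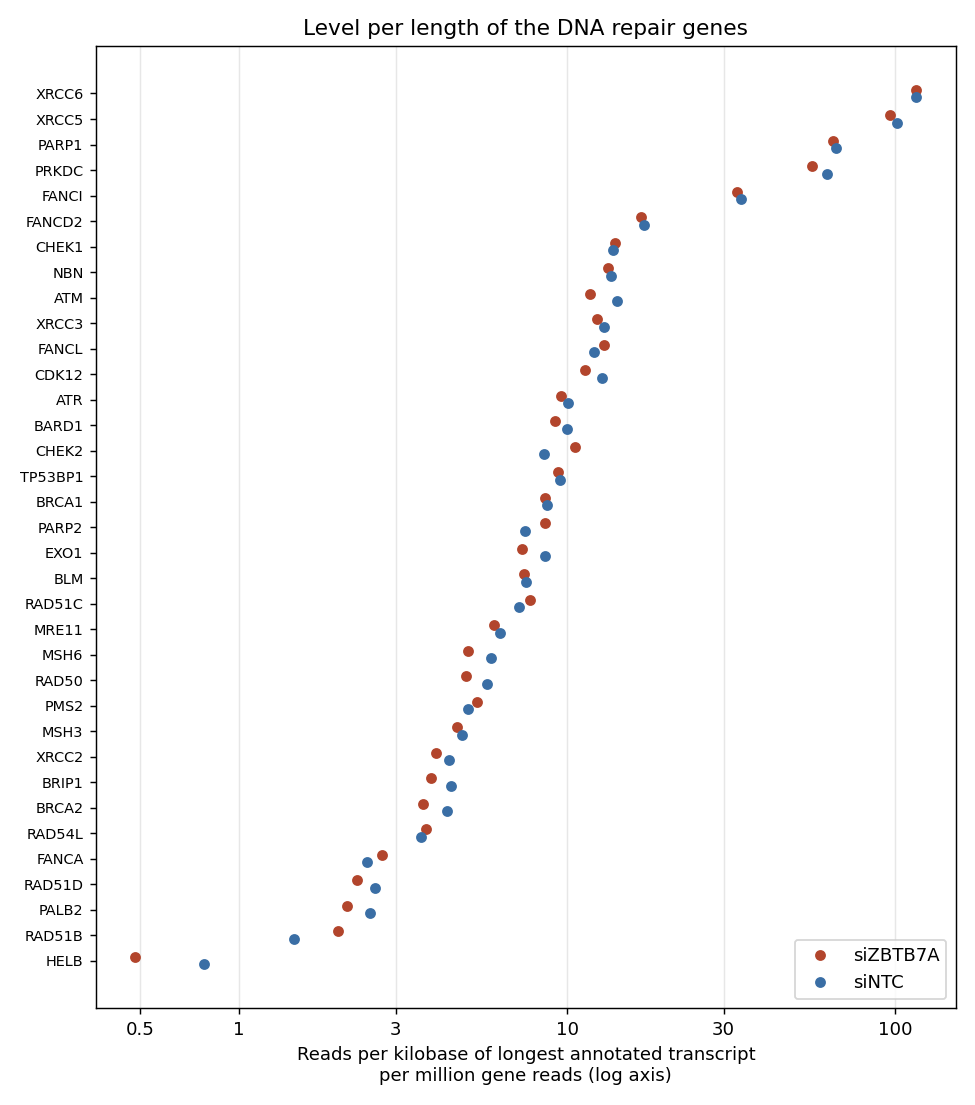
RPKM, the CPM per kilobase of the longest annotated transcript (log axis), for the 35 genes, with 1 point for the siZBTB7A library and 1 for the siNTC library. XRCC6, XRCC5, PARP1 and PRKDC lie at 55.7 or more in both libraries, and HELB lies lowest.

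Of the 35 genes, 3 were lower in siZBTB7A (ATM, PRKDC and HELB) and 0 were higher. Over all tested genes, 2.72% were lower and 2.25% higher by the same test. At an unadjusted p under 0.05, 8 members were below and 1 was above, where 8.9% and 9.02% of all genes were. DESeq2 called 2 members lower (ATM and PRKDC) and 0 higher, where it called 0.366% of all tested genes lower and 0.327% higher. It gave no adjusted p to HELB or to many other members with fewer reads, such as CHEK2, MSH6 and RAD50. Those members could not be called by it, and the shares count all such genes as not called. The fold lay below 1 in 26 of the 35, against 49.8% of all tested genes. Both values are before the correction for transcript GC content and length that is given below. The median fold was 0.962 for the members and 1.001 for all tested genes. Together the 35 genes had 3095 CPM in siZBTB7A and 3294 CPM in siNTC, a summed fold of 0.940 (0.926 to 0.954), to which PRKDC contributed the most reads. The libraries also differed in reads that were not assigned to a gene. Reads at no annotated exon of the counted strand made up 23.13% and 23.17% of the siZBTB7A tables. In the siNTC tables they made up 20.58% and 20.61%, and such reads can lie within introns. Multi-mapping reads made up 22.27% and 22.21% of the siZBTB7A tables and 24.46% and 24.38% of the siNTC tables. The part of both kinds of reads in the members' values was not tested.

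**Figure D2:**
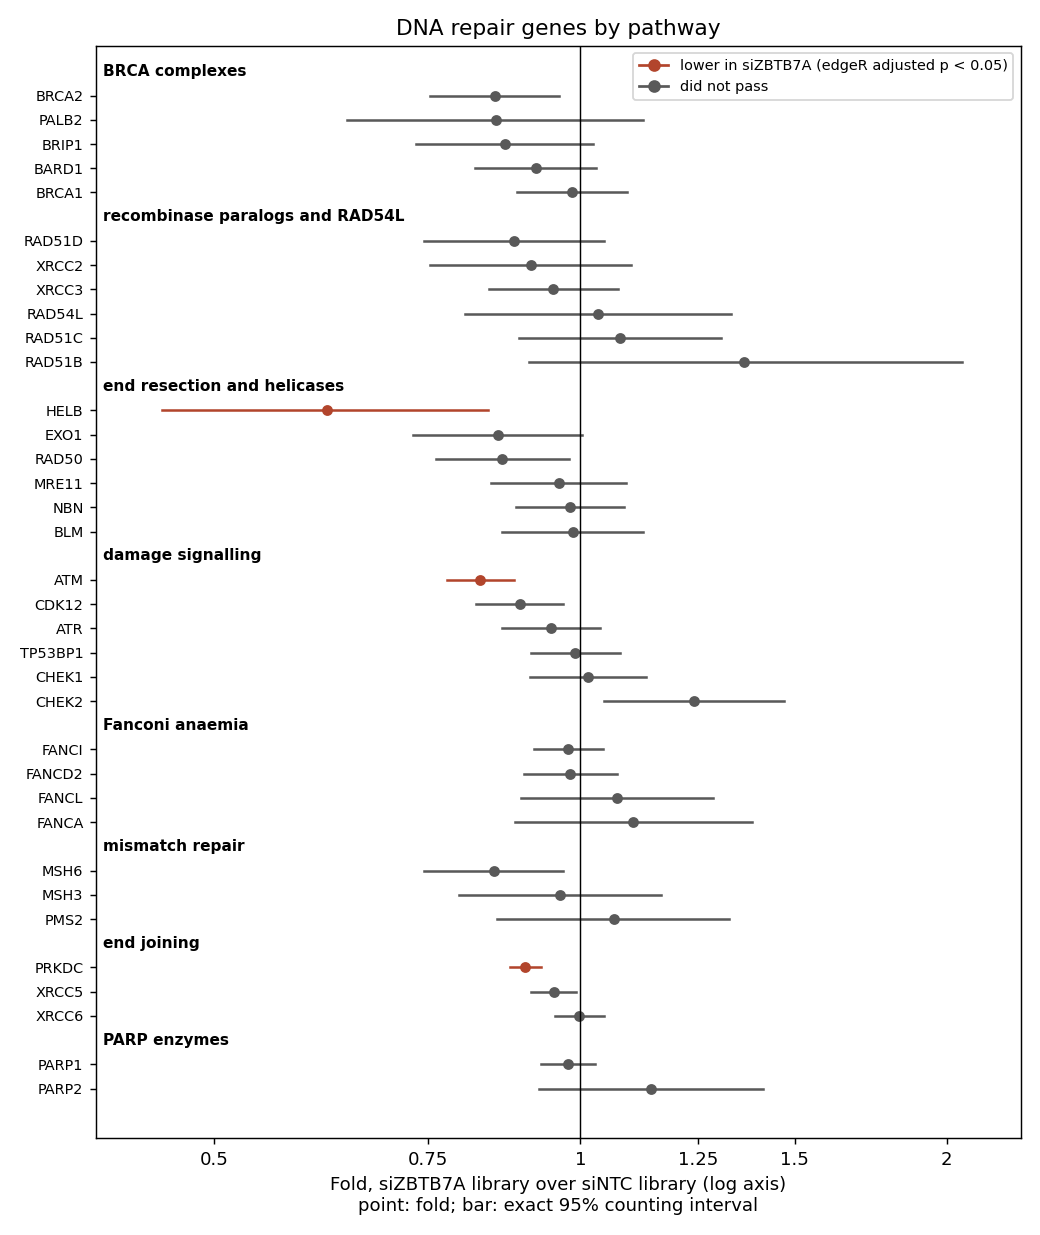
Fold of each of the 35 genes in the siZBTB7A library over the siNTC library (log axis), grouped by pathway, with exact 95% counting intervals as bars. HELB, ATM and PRKDC are the genes that passed the test, all below 1, and 26 of 35 points lie left of 1.

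ATM, the kinase that starts the response to double-strand breaks, was lower. It had 160.9 and 148.6 CPM in the siZBTB7A tables and 181.7 and 191.9 CPM in the siNTC tables. Both siZBTB7A tables lay below both siNTC tables. The fold was 0.828 (0.777 to 0.882) from 1720 reads in siZBTB7A and 2199 in siNTC (edgeR adjusted p = 4.72e-06). With a correction for transcript GC content and length it remained lower, with the log2 fold at -0.16 in place of -0.27 (edgeR adjusted p = 0.036).

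HELB had the lowest fold of the 35 and the second fewest reads. It encodes a DNA helicase that limits end resection in human cells. Its reads numbered 35 and 34 in the siZBTB7A tables and 51 and 67 in the siNTC tables, and the groups did not overlap. In CPM this was 6.40 and 6.02 in siZBTB7A and 8.82 and 11.2 in siNTC. The fold was 0.619 (0.453 to 0.840), with an edgeR adjusted p of 0.039. That call was lost without the first or the second siZBTB7A table (adjusted p = 0.137 and 0.227 in edgeR), without the second siNTC table (0.393), with no filter on low counts (0.0617) and with the GC and length correction (0.133), while the log2 fold stayed between -0.74 and -0.50 in these fits.

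The sequences just before the starts of ATM and HELB are shown because these are the lower genes with the largest folds away from 1 and a listed promoter. They run to the last base before the RefSeq start on GRCh38.p14, on the plus strand, and capitals mark a CCAAT box (CCAAT or ATTGG) or a GC box (GGGCGG or CCGCCC). The ATM window is chr11:108222817-108223066 and the HELB window is chr12:66302243-66302492.
ATM: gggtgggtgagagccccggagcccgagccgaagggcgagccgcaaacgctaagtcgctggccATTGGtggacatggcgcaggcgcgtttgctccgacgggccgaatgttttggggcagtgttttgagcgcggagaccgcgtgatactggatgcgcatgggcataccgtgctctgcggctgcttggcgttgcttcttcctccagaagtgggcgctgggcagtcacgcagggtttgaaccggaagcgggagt
HELB: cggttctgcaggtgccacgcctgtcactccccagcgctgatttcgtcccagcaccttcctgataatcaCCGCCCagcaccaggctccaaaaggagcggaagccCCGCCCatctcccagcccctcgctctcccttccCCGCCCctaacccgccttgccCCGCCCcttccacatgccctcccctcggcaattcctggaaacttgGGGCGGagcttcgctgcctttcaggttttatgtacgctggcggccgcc
The ATM window held 1 CCAAT box and 0 GC boxes, whereas the HELB window held 5 GC boxes and 0 CCAAT boxes. A promoter was listed for 31 of the 35 genes. On either strand of the 250 bases before the start, 23 of the 31 held a GC box, against 42.3% of 27305 listed promoters, and 14 held a CCAAT box, against 33.0%. The E2F letters TTTCCCGC, TTTGGCGC, TTTCGCGC or TTTGCCGC stood in 3 (FANCA, MSH3 and PMS2), against 2.79%. These are matches of letters and not measured binding sites, and all listed promoters include those of noncoding genes. The listed start of a gene, such as BRCA1, need not be the one used in these cells.

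**Figure D3:**
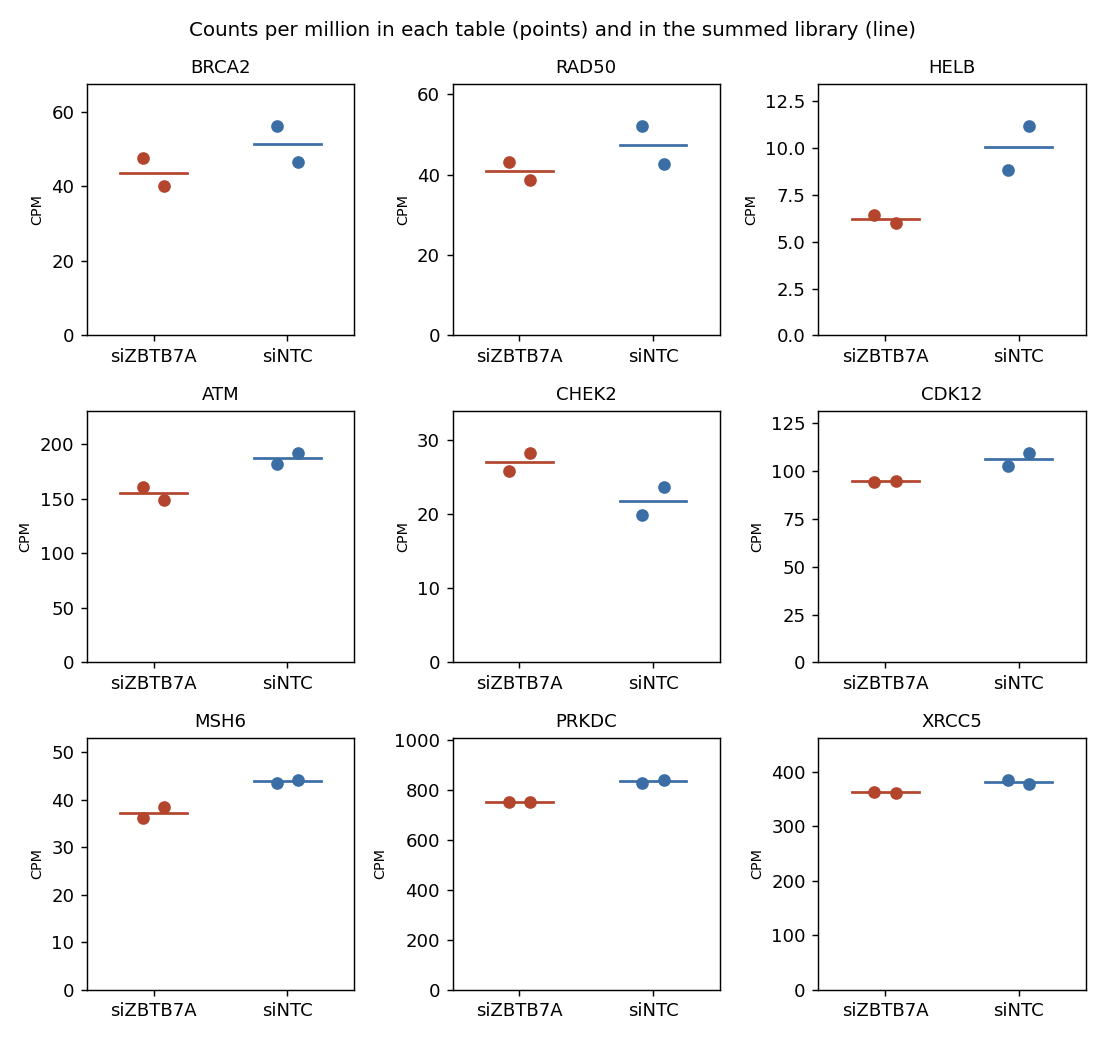
CPM in each table (points) and in the summed library (line) for the 9 genes whose 95% counting interval left out 1, with siZBTB7A left and siNTC right and each axis starting at 0. The siZBTB7A tables lie below both siNTC tables in HELB, ATM, CDK12, MSH6, PRKDC and XRCC5 and above them in CHEK2, while in BRCA2 and RAD50 the groups overlap.

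Among the other damage signalling genes none passed the test (0 of 5). CDK12, a kinase of RNA polymerase II needed for full transcription of long genes, had 94.55 and 95.02 CPM in siZBTB7A and 102.8 and 109.7 CPM in siNTC. The groups were apart, and the fold was 0.892 (0.821 to 0.969, edgeR adjusted p = 0.087). CHEK2, the effector kinase downstream of ATM, had 25.8 and 28.3 CPM in siZBTB7A and 19.9 and 23.7 CPM in siNTC. Its fold of 1.24 (1.05 to 1.47, edgeR adjusted p = 0.135) was the only one of the 35 whose interval lay above 1, against 8.54% of all tested genes. CHEK2 has partial pseudogene copies in the genome, so its uniquely mapped reads are uncertain. ATR stood at 0.946 (0.863 to 1.037), its effector kinase CHEK1 at 1.01 (0.909 to 1.13) and TP53BP1, which shields ends from resection, at 0.991 (0.911 to 1.077).

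In end joining, PRKDC was lower and its Ku partners did not pass. PRKDC, the catalytic subunit of the DNA-dependent protein kinase, had 752.8 and 751.8 CPM in siZBTB7A and 829.4 and 841.0 CPM in siNTC. The tables of each group were close together and the groups were apart. The fold was 0.901 (0.875 to 0.927) from 8365 reads in siZBTB7A and 9829 in siNTC (edgeR adjusted p = 7.24e-08), and with the GC and length correction the log2 fold was -0.06 in place of -0.15 and the gene no longer passed (edgeR adjusted p = 0.102). XRCC5 had 362.9 and 362.0 CPM in siZBTB7A and 385.4 and 377.0 CPM in siNTC, a fold of 0.951 (0.911 to 0.992, edgeR adjusted p = 0.175). XRCC6, with 314.6 and 314.1 CPM in siZBTB7A and 312.8 and 316.8 CPM in siNTC, had a fold of 0.998 (0.953 to 1.046).

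The BRCA complexes had all 5 folds below 1, but none passed (0 of 5). With the GC and length correction the log2 fold of BRCA1 was 0.041. Those of BRCA2, PALB2, BARD1 and BRIP1 were then -0.12, -0.206, -0.062 and -0.14. BRCA2, which loads the recombinase onto single strands, had 47.55 and 39.99 CPM in siZBTB7A and 56.3 and 46.7 CPM in siNTC. The groups overlapped, and the fold was 0.850 (0.753 to 0.960, edgeR adjusted p = 0.123). Without the second siNTC table or the first siZBTB7A table BRCA2 passed the edgeR test at log2 folds of -0.37 and -0.36 (adjusted p = 0.0278 and 0.0475). PALB2, the bridge between BRCA1 and BRCA2, stood at 0.852 (0.643 to 1.13) with 45 and 50 reads in siZBTB7A and 61 and 57 in siNTC. The helicase gene BRIP1 stood at 0.867 (0.732 to 1.025), BARD1, the partner of BRCA1 in its ubiquitin ligase, at 0.919 (0.819 to 1.031) and BRCA1 itself at 0.984 (0.886 to 1.093). BRCA1 was even across the tables, at 63.7 and 61.0 CPM in siZBTB7A and 64.0 and 62.7 CPM in siNTC. The 5 genes summed to 188.2 CPM in siZBTB7A and 206.4 CPM in siNTC, a fold of 0.912 (0.860 to 0.967).

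The other 5 genes of end resection and helicases also had folds below 1 without passing. RAD50, of the MRE11-RAD50-NBN complex that holds broken ends, had 43.2 and 38.6 CPM in siZBTB7A and 52.2 and 42.6 CPM in siNTC. The ranges overlapped through the lower siNTC table, and the fold was 0.863 (0.760 to 0.978, edgeR adjusted p = 0.188). Without that siNTC table RAD50 passed, at a log2 fold of -0.35 (edgeR adjusted p = 0.0453). Its partners stood nearer to 1, MRE11 at 0.960 (0.845 to 1.091) and NBN at 0.981 (0.886 to 1.087). EXO1, a resection nuclease, stood at 0.855 (0.728 to 1.003), with both siZBTB7A tables (26.0 and 24.8 CPM) below both siNTC tables (30.8 and 28.6 CPM). BLM, the helicase that dissolves joined strands, stood at 0.985 (0.862 to 1.13). With the GC and length correction the log2 folds of MRE11, NBN and BLM were 0.014, 0.027 and 0.026. Those of RAD50 and EXO1 were then -0.138 and -0.205.

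The recombinase paralogs went in both directions and none passed (0 of 6, with RAD54L). RAD51B had 29 and 29 reads in siZBTB7A and 31 and 14 in siNTC, a fold of 1.36 (0.908 to 2.06). It was the highest fold of the 35 and rests on the second siNTC table, since the first lay at 5.36 CPM beside 5.30 and 5.13 CPM in siZBTB7A. RAD51C stood at 1.08 (0.890 to 1.31), RAD51D at 0.882 (0.744 to 1.045), XRCC2 at 0.910 (0.753 to 1.10) and XRCC3 at 0.950 (0.841 to 1.074). RAD54L, a motor that remodels recombination filaments, stood at 1.03 (0.804 to 1.33).

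Fanconi anaemia, mismatch repair and PARP genes held no call (0 of 9). FANCD2 and FANCI, the pair that is ubiquitinated at crosslinks, stood at 0.981 (0.898 to 1.071) and 0.978 (0.915 to 1.044). FANCL, the ligase that does so, stood at 1.07 (0.893 to 1.29) and FANCA, of the core complex, at 1.11 (0.883 to 1.38). MSH6, which recognises base mismatches, had 36.0 and 38.4 CPM in siZBTB7A and 43.6 and 44.1 CPM in siNTC. Its groups were apart, at a fold of 0.849 (0.744 to 0.968, edgeR adjusted p = 0.138). The log2 fold of -0.236 was -0.165 with the GC and length correction (edgeR adjusted p = 0.406) and -0.176 with unstranded counts. Reads on the other strand of MSH6 made up 26.73% in siZBTB7A and 20.25% in siNTC, and their part was not tested. MSH3, which recognises larger loops, stood at 0.962 (0.794 to 1.17) and the endonuclease gene PMS2 at 1.07 (0.855 to 1.33). PMS2 has near-identical pseudogene copies, so its count is uncertain. PARP1 stood at 0.977 (0.928 to 1.029) with 2843 reads in siZBTB7A and 3079 in siNTC, and PARP2 at 1.14 (0.925 to 1.41).

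In all, the interval lay below 1 in 8 members (BRCA2, RAD50, HELB, ATM, CDK12, MSH6, PRKDC and XRCC5), against 8.52% of all tested genes. The shares in this paragraph are before the GC and length correction. With it the log2 folds of CDK12, MSH6 and XRCC5 were -0.106, -0.165 and -0.059, and of the 8 only ATM was called. In 13 members both siZBTB7A tables lay below both siNTC tables, against 23.4% of all tested genes, and in 1 they lay above (CHEK2), against 23.5%. The members were deeper than the average gene, with a median of 967 reads over both groups against 538 for all tested genes, so a given fold was easier to detect in them.

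The length of the longest annotated transcript ran with the folds of the members. The Pearson correlation of log2 fold with log2 length over the 35 genes was -0.68 (Spearman -0.67), and with GC content it was 0.31 (0.43). These describe genes that share the same 2 libraries, and genes are not replicates. Among all genes with at least 100 reads, the shortest tercile (up to 2865 bases) had a median fold of 1.028, the middle one 1.008 and the longest (over 4835 bases) 0.971. The members followed this order, with median folds of 1.08 in the shortest tercile (7 genes), 0.957 in the middle (10) and 0.910 in the longest (18). In the longest tercile 17 of 18 members had a fold below 1, against 62.0% of all its genes. In it 3 of 18 were lower, against 6.52%. These 3 had the longest annotated transcripts of the 35, PRKDC at 13509 bases, ATM at 13147 and HELB at 12866. An annotated transcript need not be the one expressed, so the lengths used here and in the correction may be off. The tercile holds all genes over 4835 bases, so its shares are not matched to them in length. The members were also longer than the average tested gene, with a median of 4907 against 3628 bases, and lower in GC, at 42.4% against 48.0%. With the correction for both features the median log2 fold of the members was -0.03 in place of -0.06, and of the 3 calls ATM remained. Whether length or GC content had a part in the differences beyond this correction was not tested.

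**Figure D4:**
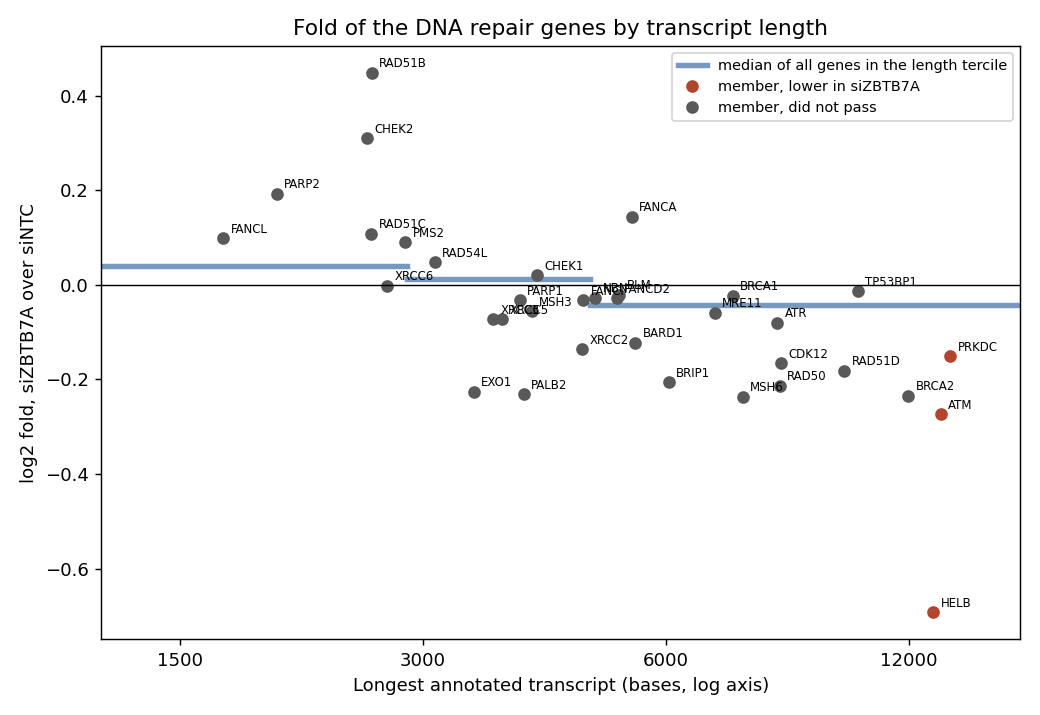
Log2 fold, siZBTB7A over siNTC, against the longest annotated transcript of each of the 35 genes (log axis), with the median of all genes with at least 100 reads in each length tercile as horizontal lines. The shortest members lie mostly above 0 and the longest below it, and the lines for all genes step down in the same order.

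For 9 of the 35 genes, a tested protein-coding neighbour on the opposite strand whose annotated start lies within 1000 bases is given here. The annotated start is the outermost one of each gene and need not be the start used in these cells. BRCA1, for example, is annotated over 126.0 kb, so NBR1 need not start beside the BRCA1 promoter in use. For ATM, the neighbour NPAT, a regulator of histone genes, had a fold of 0.877 (0.765 to 1.004, edgeR adjusted p = 0.30), beside 0.828 (0.777 to 0.882) for ATM. For PRKDC, the neighbour MCM4, a subunit of the replicative helicase, stood at 0.995 (0.950 to 1.043), beside 0.901 (0.875 to 0.927) for PRKDC. The intervals of this second pair did not overlap, though the annotated starts are 2 bases apart. DESI1, which starts 23 bases from XRCC6, was higher at 1.18 (1.08 to 1.28, edgeR adjusted p = 0.00835), beside 0.998 (0.953 to 1.046) for XRCC6. It did not pass without the first siNTC table or the first siZBTB7A table (edgeR adjusted p = 0.265 and 0.175) or in DESeq2 (adjusted p = 0.359). None of the other 8 neighbours passed. These were NBR1 at 0.918 (with BRCA1), DCTN5 at 0.951 (PALB2), ZFYVE21 at 0.922 (XRCC3), ANKRD49 at 1.24 (MRE11), HSCB at 1.15 (CHEK2) and AIMP2 at 1.08 (PMS2), beside NPAT and MCM4. The difference between the members of a pair was not tested.

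**Figure D5:**
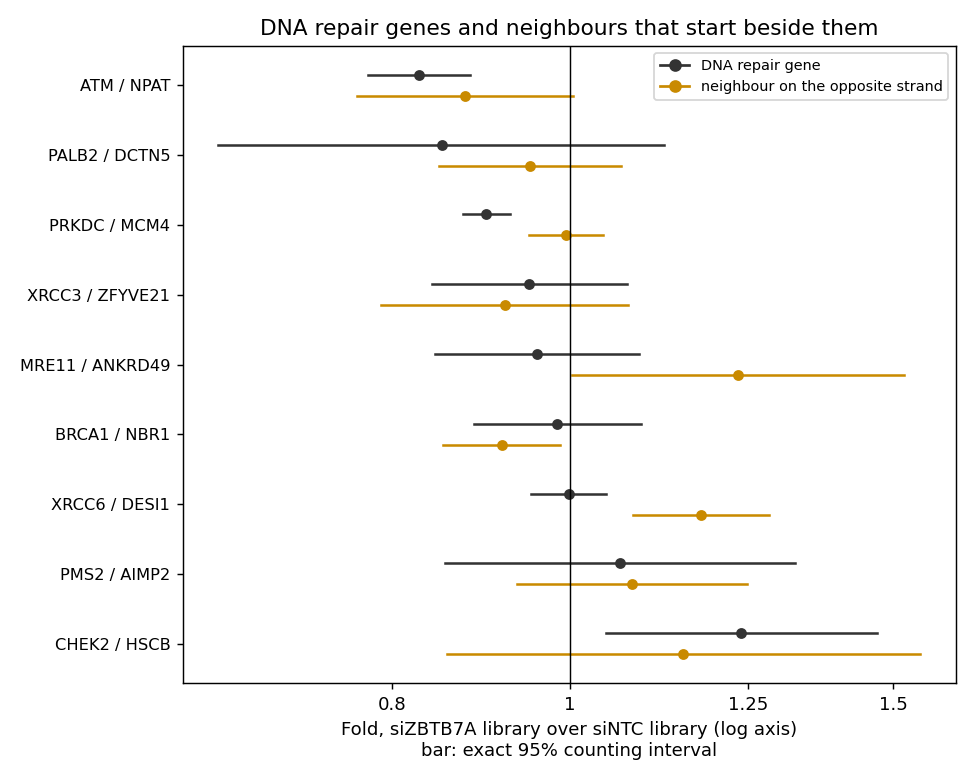
Fold in the siZBTB7A library over the siNTC library (log axis) for 9 DNA repair genes and their neighbours, with exact 95% counting intervals. The outermost annotated starts of each pair lie within 1000 bases on opposite strands. ATM and NPAT both lie below 1, whereas PRKDC lies below MCM4, and XRCC6 below DESI1, without overlap of the intervals.

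Other DNA repair genes, 144 in 8 lists that also cover excision repair and translesion synthesis, held 1 call in each direction among the 139 tested, with a median fold of 0.990. Over all tested genes 2.25% were called higher and 2.72% lower. RIF1, which acts with TP53BP1 to shield ends, was lower with 1054 and 1069 reads in siZBTB7A and 1245 and 1329 in siNTC, a fold of 0.873 (0.824 to 0.925, edgeR adjusted p = 0.000392). FAAP100, of the Fanconi anaemia core complex, was higher with 367 and 391 reads in siZBTB7A and 337 and 343 in siNTC, a fold of 1.18 (1.062 to 1.31, edgeR adjusted p = 0.0428). Neither passed with the GC and length correction (edgeR adjusted p = 0.48 and 0.43) or in DESeq2 (adjusted p = 0.146 and 0.547), and FAAP100 was also lost without any 1 of the 4 tables (0.115 to 0.262) and with no filter on low counts (0.0616). The calls were 0 of 32 in other recombination genes (median fold 0.994), 1 of 17 in other Fanconi anaemia genes (0.974) and 0 of 4 in other mismatch repair genes (0.954). They were 1 of 13 in other end-joining genes (0.967), 0 of 25 in base excision and strand break repair (1.045) and 0 of 18 in nucleotide excision repair (0.974). They were 0 of 21 in other damage signalling genes (1.0) and 0 of 9 in translesion synthesis (0.929).

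Many repair genes are transcribed most in dividing cells, so proliferation genes were set beside them. Of 20 proliferation genes, 2 were lower (TOP2A at 0.888 and MKI67 at 0.895) and 1 was higher (E2F1 at 1.24), with a median fold of 0.997. The shares over all tested genes were 2.72% lower and 2.25% higher. Their summed level was 2753 and 2768 CPM in the siZBTB7A tables and 2873 and 2877 CPM in the siNTC tables, a fold of 0.960 (0.945 to 0.975). The summed level of the 35 repair genes was 3107 and 3085 CPM in siZBTB7A and 3295 and 3293 CPM in siNTC. Both sums were lower in both siZBTB7A tables than in either siNTC table, and the part of proliferation in the repair values was not tested. MKI67 did not pass without the first siNTC table (edgeR adjusted p = 0.462), without either siZBTB7A table (0.137 and 0.17), with no filter on low counts (0.0673), with the GC and length correction (0.349) or in DESeq2 (adjusted p = 0.531). E2F1 did not pass without the second siNTC table (edgeR adjusted p = 0.0557), without the first siZBTB7A table (0.0991), with that correction (0.0832) or in DESeq2 (adjusted p = 0.223).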

How the data were processed

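The deposited tables hold raw read counts for each gene, in the layout of STAR's gene counts. The submitters' processing notes name STAR 2.4.2a, hg19 and GRCh37. The annotation release was not given in the sources used here. Column 4, the main strand, was used: its gene reads exceeded those of column 3 by 24.9 to 25.5 times. Rows that name no gene held 50.8% to 51.2% of reads and were left out. Genes were named, and transcript length and GC content taken, from GENCODE 29, which is on another build, so gene coordinates are not given. Promoters came from RefSeq (GRCh38.p14).

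The test was edgeR 4.0.16 in R 4.3.3 (robust quasi-likelihood with filterByExpr, TMM factors and no term but group, Benjamini-Hochberg over all tested genes). It was also run on counts simulated with read sampling error only. That simulation held no spread between cultures and no shift with GC content or length. Its planted changes were larger than the folds of ATM and PRKDC, so it does not bear on calls of that size. DESeq2 1.42.0 and the other settings given at the end were alternatives. Replicates are not said to be separate cultures, so p-values measure only the spread between tables. The members, pathway groups, lists and tests were chosen with earlier results of these data known. The genes named were the 35 members, ZBTB7A, up to 2 genes called in each direction from each other list, and the tested neighbours. A further neighbour and a marker are not reported here. Of 187 other listed entries, 1 was not matched. Figures used Python 3.11.15 and matplotlib 3.10.9, and intervals scipy 1.17.1.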

Additional observations from a re-analysis of the deposited data

How the results depend on the processing

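Of all tested genes, 639 were called (289 higher, 350 lower). DESeq2 called 89, the GC and length correction 374, and that correction with the replicate block 386. Leaving out 1 table called 303 to 373. Of the 35 repair genes 3 were called, and 1 (ATM) with the GC and length correction, with or without the block. Leaving out 1 table called 2 to 4, all lower. The median log2 fold of the members was -0.056, and it was -0.026 with the correction, with or without the block, and -0.088 to -0.051 when 1 table was left out. DESeq2 size factors, unstranded counts, the exact binomial test, protein-coding genes only and a filter at 1 CPM on average each gave the same 3 member calls, and no filter gave 2. The replicate block called 654 genes and the same 3 members. Tables with the same replicate number deviated with a correlation of -0.015 over 5461 genes. Since the tables of a group differed by no more than read sampling over all genes, this cannot show whether equal numbers share a culture. ATM passed in every fit run. With 1 library per group no value measures the spread between cultures. Genes such as HELB, RAD51B, PALB2 and RAD54L have too few reads for a fold within 1.2 of 1 to be told from counting error.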
